A study of Saccharomyces cerevisiae with 3 samples.

Results

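The genes described here encode the core proteins of the small nucleolar ribonucleoproteins (snoRNPs) of the budding yeast Saccharomyces cerevisiae. They are 9 genes listed by name: NOP1, NOP56, NOP58, SNU13 and RRP9 of the box C/D particles, and CBF5, GAR1, NHP2 and NOP10 of the H/ACA particles. By symbol, 8 of the 9 matched a spot among the 5203 named genes on the arrays. NOP10 matched none and was not analysed here. RRP9 had a value on 2 of the 3 arrays, which left 7 members among the 3039 genes that were measured on all 3 arrays and tested.

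Each of 3 two-colour arrays compared polyadenylated RNA from a culture given 2-aminobenzimidazole to 5 mM for 2 h, labelled with Cy5, with that from a culture grown for the same time untreated, labelled with Cy3. All cultures were strain S288C in YPD medium with 2% glucose at 25 °C, and treatment began in exponential growth. The series calls the samples independent biological ones. There were 0 arrays with the dyes exchanged, so a dye effect on a gene and the treatment cannot be told apart. Values are log ratios after LOWESS normalisation by the authors. They are read as log2 of treated over control, the likely direction and base, though the table states neither. A negative value then means less transcript in treated cells, and under a natural log every fold change would be larger. Because the log ratios were normalised by LOWESS, a change in the whole messenger pool cannot be seen.

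A snoRNP consists of a guide RNA, which base-pairs with a ribosomal RNA precursor, and a small set of proteins shared by all particles of its class. Box C/D particles methylate the ribose at the paired nucleotide, and H/ACA particles convert a uridine to pseudouridine. A few snoRNPs, among them the box C/D particle U3, are needed for cleavage of the precursor itself. In yeast most of these protein genes are essential and belong to the ribosome biogenesis regulon, whose transcription follows growth rate. There were 0 spots for the guide RNAs themselves, so only the protein side was measured.

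After exposure to 2-aminobenzimidazole, transcripts of 5 of the 7 tested members, GAR1, NOP1, NOP58, NOP56 and CBF5, were lower, and 0 were higher (limma, Benjamini-Hochberg adjusted p below 0.05 over all 3039 genes). Of all genes tested, 9.64% were lower and 8.36% higher by the same rule. GAR1, NOP1, NOP58 and NOP56 had mean log2 ratios between -2.36 and -2.17, a 4.49- to 5.14-fold lower level on the log2 reading, and CBF5 had -1.56, or 2.94-fold lower. SNU13 at -0.90 and NHP2 at -0.61 did not pass. The members' median of the mean log2 ratio was -2.17, against -0.04 over all tested genes.

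**Figure D1:**
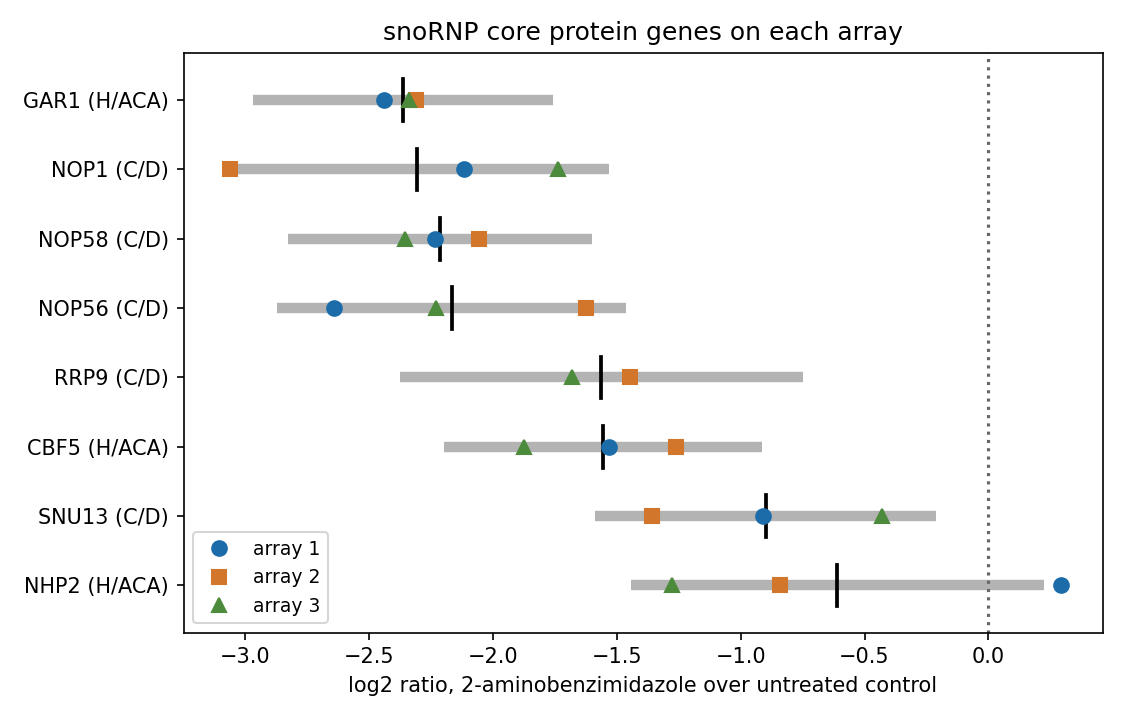
Log2 ratios of treated over control (horizontal axis) for the 8 members with a value, one row each, ordered by mean. Points are single arrays, black ticks the mean and grey bars the 95% interval of the mean from limma (for RRP9 from the fit of genes on at least 2 arrays). GAR1, NOP1, NOP58, NOP56 and CBF5 lie left of -1.2 on every array, while NHP2 is above 0 on array 1.

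Among the box C/D proteins, NOP1 (YDL014W), the fibrillarin methyltransferase that carries out the ribose methylation, had log2 ratios of -2.12, -3.06 and -1.74 on arrays 1, 2 and 3. Its mean was -2.31 ± 0.68 (SD, n = 3; adjusted p = 0.0121, limma). It was the member with the lowest value on array 2, where only 2 of the 5044 genes with a value lay below it, and without array 2 its mean was -1.93. NOP58 (YOR310C) and NOP56 (YLR197W) are paralogous scaffold proteins that hold the particle together. NOP58 had -2.23, -2.06 and -2.35, with a mean of -2.21 ± 0.15 (SD, n = 3; adjusted p = 0.0085, limma). NOP56 had -2.64, -1.63 and -2.23, with a mean of -2.17 ± 0.51 (SD, n = 3; adjusted p = 0.0115, limma). NOP56 was lower than NOP58 on array 1 and higher on arrays 2 and 3, so the paralogues had no constant order, and their mean difference of 0.05 was smaller than its SD of 0.42.

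SNU13 (YEL026W) binds the kink-turn fold of box C/D guide RNAs first and is also a subunit of the spliceosomal U4/U6.U5 tri-snRNP. Its log2 ratios were -0.91, -1.36 and -0.43, all below 0 and all closer to 0 than those of NOP1, NOP56 and NOP58 on the same array. The mean was -0.90 ± 0.46 (SD, n = 3) with a 95% interval of -1.59 to -0.21, and the adjusted p was 0.0755 (limma; unadjusted p = 0.0173). RRP9 (YPR137W), a protein particular to the U3 particle, had no value on array 1 and log2 ratios of -1.44 on array 2 and -1.68 on array 3. In a fit of the 5043 genes that 2 or 3 arrays had measured, RRP9 was lower with a mean of -1.56 (adjusted p = 0.0346, limma), 5.83% of genes being lower in that fit.

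Among the H/ACA proteins, GAR1 (YHR089C), a glycine- and arginine-rich protein needed for pseudouridylation, had log2 ratios of -2.44, -2.31 and -2.34 on arrays 1, 2 and 3. Its mean, -2.36 ± 0.07 (SD, n = 3; adjusted p = 0.0085, limma), was the fourth lowest of the 3039 genes. Its 3 arrays lay within 0.13 of each other, and 1.61% of the tested genes had an SD as small or smaller. CBF5 (YLR175W), the pseudouridine synthase itself and the yeast counterpart of human dyskerin, had -1.53, -1.26 and -1.87. Its mean was -1.56 ± 0.31 (SD, n = 3; adjusted p = 0.017, limma). CBF5 thus stood closer to 0 than its partner GAR1 on each array, by 0.91, 1.05 and 0.47.

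NHP2 (YDL208W), an RNA-binding H/ACA protein of the same L7Ae family as SNU13, had log2 ratios of 0.29, -0.84 and -1.28. It was the one tested member with arrays on both sides of 0. Array 1 placed it at rank 1984 from the lowest of 3062 genes, array 3 at rank 389 of 5158. The mean was -0.61 ± 0.81 (SD, n = 3; adjusted p = 0.261, limma), and its 95% interval of -1.44 to 0.23 included both no change and a fall as large as the mean of SNU13. Without array 1 the mean of NHP2 was -1.06 (adjusted p = 0.201, limma), and without array 3 it was -0.28.

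Ranks place the members without an assumption on the log base, though they rest on the direction of the ratio. If the table gave control over treated, each rank would count from the highest gene instead. GAR1, NOP1, NOP56 and NOP58 were within the lowest 5% of the named genes with a value on every array. GAR1 stayed within the lowest 1% on each, at rank 17, 34 and 23 from the lowest on arrays 1, 2 and 3, and was the second lowest member each time. The lowest member was NOP56 on array 1, NOP1 on array 2 and NOP58 on array 3. CBF5 was within the lowest 10% on all 3 arrays, and RRP9 on both arrays that gave it a value. SNU13 was within the lowest 10% on array 2 and at 18.1% and 32.3% on arrays 1 and 3. On the log2 reading, GAR1, NOP1, NOP58, NOP56 and CBF5 fell by a factor of 2 or more on every array, as did 3.75% of all tested genes.

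**Figure D2:**
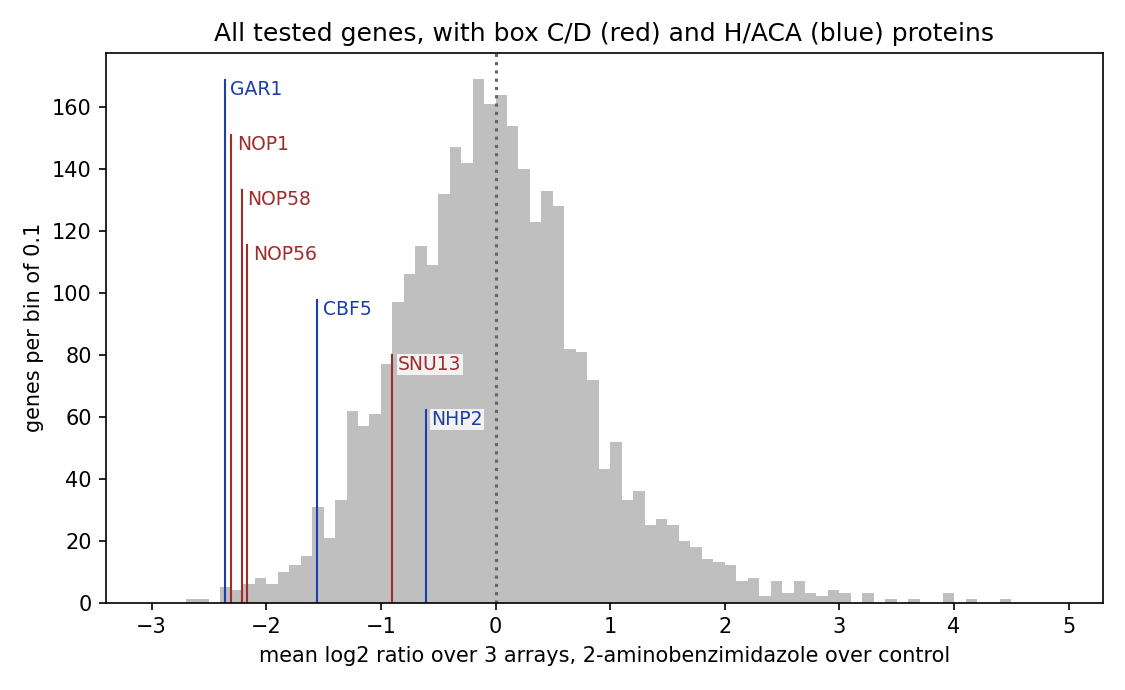
Histogram of the mean log2 ratio over 3 arrays for the 3039 tested genes (vertical axis, genes per bin of 0.1), with lines at the 7 tested members, box C/D in red and H/ACA in blue. Line heights only separate the labels. GAR1, NOP1, NOP58 and NOP56 stand in the lower tail between -2.36 and -2.17, CBF5 at -1.56, and SNU13 and NHP2 within the bulk of the genes.

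The order of the means, from lowest, was GAR1, NOP1, NOP58, NOP56, CBF5, SNU13 and NHP2. Neighbours in that order mostly did not differ beyond their spread: of the 6 neighbouring pairs, only NOP56 and CBF5 kept the same order on all 3 arrays, NOP56 being lower by 0.61 ± 0.43 (SD of the difference, n = 3 arrays). Of all 21 pairs of tested members, 12 kept their order on every array. GAR1, NOP58 and NOP56 were each below CBF5, SNU13 and NHP2 on each array, while GAR1, NOP1, NOP58 and NOP56 changed places among themselves. With 3 arrays an exact two-sided sign-flip permutation test cannot give a p below 0.25, which adjusted over the 21 pairs was 0.438, so this test could call no pair different at this number of arrays. The differences with the smallest spread relative to their size among pairs that kept their order were NOP1 below SNU13, at -1.41 ± 0.26, and NOP58 below CBF5, at -0.66 ± 0.16 (SD of the difference, n = 3 arrays).

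The 2 classes of particle were compared on each array as the mean of 3 H/ACA members minus that of 4 box C/D members. The difference was 0.75 on array 1, 0.55 on array 2 and -0.14 on array 3, with a mean of 0.39 ± 0.47 (SD, n = 3; exact permutation p = 0.5, two-sided, smallest possible 0.25). Without NHP2 it was -0.01, 0.24 and -0.42, with a mean of -0.06 ± 0.33 (SD, n = 3). Leaving out NHP2 thus brought the mean difference near 0, and neither version held one sign on all arrays. SNU13, at a mean of -0.90 the tested box C/D member nearest to 0, was kept in both versions. Averaged over the 7 members the log2 ratio was -1.65, -1.79 and -1.75 on arrays 1, 2 and 3, while their medians were -2.12, -1.63 and -1.87. Single members shifted in opposite directions, NHP2 being lower on array 2 than on array 1 and NOP56 higher. Over all tested genes the arrays correlated unequally (Pearson r of 0.748 between arrays 1 and 3, 0.52 between 1 and 2, and 0.468 between 2 and 3). This is a correlation across genes, which are not independent replicates.

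**Figure D3:**
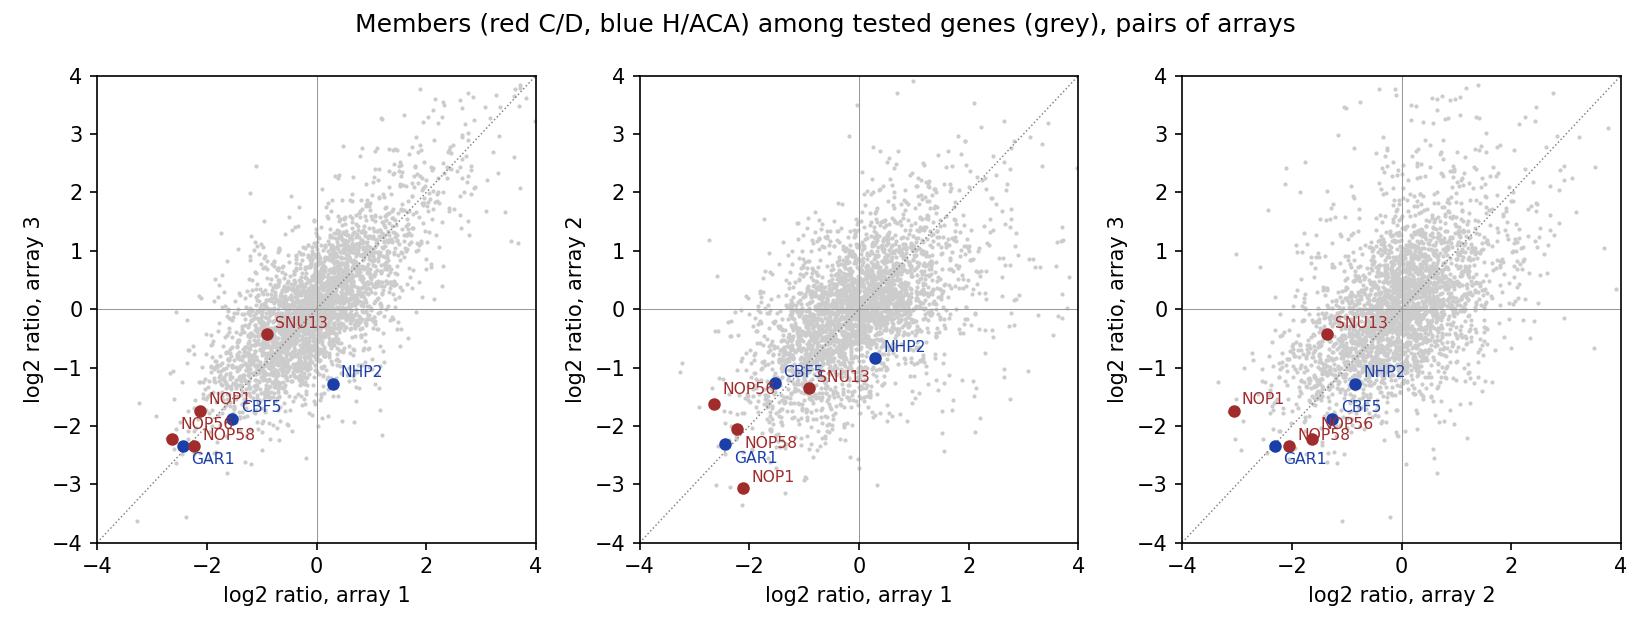
Log2 ratios of one array against another for the 3039 tested genes (grey) and the 7 tested members (box C/D red, H/ACA blue). The axes end at 4 in either direction, and the dotted line marks equal values. Beyond 4 in size on some array lay 15 genes, which are missing from the panels of that array. GAR1 lies near that line in each panel, NOP1 is displaced towards low values on array 2, and NHP2 is at 0.29 on array 1.

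The calls depended on which array was left out. Without array 1 or without array 3, limma called 0 of the 3039 genes lower, members included (347 and 411 were lower at an unadjusted p below 0.05), and GAR1, NOP1, NOP58, NOP56 and CBF5 kept an unadjusted p below 0.05 in both fits, with adjusted p values of 0.117 to 0.168. The mean of GAR1 was -2.33 without array 1 and -2.38 without array 3, and that of CBF5 was -1.57 and -1.40. Without array 2 the same 5 members were called lower, 12.0% of all genes being lower in that fit.

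Genes that work with the snoRNPs were looked up in 7 lists drawn up from general knowledge of yeast, with earlier results of these data known. Of their 64 genes with a spot, 31 were measured on all 3 arrays. Among these 31, 11 were lower and 0 higher, beside 9.64% lower and 8.36% higher over all 3039 genes. Each count below from genes on all 3 arrays is to be read against these shares. For counts from the fit of genes on at least 2 arrays, 5.83% of 5043 genes were lower and 272 were higher. The median log2 ratio of the 31 genes was -0.67. Array 1 held a value for 48.4% of the listed genes and for 58.9% of all named genes, so the lists were tested only in part.

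Of 12 genes for snoRNP assembly and snoRNA processing, 5 were tested and 2 were lower, with a list median of -1.11 beside -0.04 over all genes. SRP40 (YKR092C), the yeast relative of the nucleolar chaperone Nopp140, had log2 ratios of -1.77, -2.13 and -1.23, with a mean of -1.71 ± 0.45 (SD, n = 3; adjusted p = 0.016, limma). RVB2 (YPL235W), an ATPase of the R2TP complex that assembles box C/D particles, had -1.24, -0.70 and -1.44 (mean -1.13 ± 0.39, SD, n = 3; adjusted p = 0.0361, limma). Its partner RVB1 was close behind at a mean of -1.11 ± 0.79 (SD, n = 3), but its arrays were further apart and it did not pass (adjusted p = 0.0694, limma). NAF1, which holds the place of GAR1 while H/ACA particles are assembled, had log2 ratios of -1.74, -0.89 and 1.30, on both sides of 0, unlike those of GAR1. Of this list, 6 genes had values on arrays 2 and 3 only. Among these, RNT1, the RNase III that trims snoRNA precursors, stood at -1.58 and -1.27. RNT1 was lower in the fit of genes on at least 2 arrays (adjusted p = 0.0439, limma). PIH1 was above 0 on both arrays, at 0.36 and 1.02 (mean 0.69, adjusted p = 0.26, limma). BCD1 had a mean of -0.14 over arrays 2 and 3. HIT1, which was measured on all 3 arrays, had a mean of -0.07. In the fit of genes on at least 2 arrays, 11 genes of the list were tested, 10 had means below 0 and 3 were lower.

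Partners of RRP9 around the U3 particle were below 0 as well. Of 10 genes, 5 were tested, all 5 had a mean below 0, and 2 were lower, with a median of -0.90. DIP2 (YLR129W), a processome subunit, had log2 ratios of -1.61, -1.24 and -0.74 (mean -1.20 ± 0.44, SD, n = 3; adjusted p = 0.033, limma). SOF1 (YLL011W), another processome subunit, had -0.76, -0.94 and -1.33 (mean -1.01 ± 0.29, SD, n = 3; adjusted p = 0.0437, limma). With arrays centred on their medians, or with genes on at least 2 arrays, SOF1 no longer passed. The 5 genes of this list without a value on array 1 had means of -1.52 to -0.37, and RCL1 at -1.52 was lower (adjusted p = 0.0405, limma, genes on at least 2 arrays).

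Genes listed for RNA modification outside the snoRNP core proteins were mixed. Of 13 such genes for rRNA modification, 7 were tested and 2 were lower, with a median of -0.53. NOP2 (YNL061W), a cytosine methyltransferase of the large-subunit rRNA, had log2 ratios of -1.30, -1.36 and -2.61 (mean -1.75 ± 0.74, SD, n = 3; adjusted p = 0.0205, limma). KRE33 (YNL132W), the cytidine acetyltransferase of the small-subunit rRNA, had -1.58, -1.67 and -1.59 (mean -1.61 ± 0.05, SD, n = 3; adjusted p = 0.0138, limma). Of 9 stand-alone pseudouridine synthases, which share the reaction of CBF5 but not its particle, 3 were tested and 0 passed in limma. PUS7 stood at -0.89 ± 0.40 and PUS4, of the same TruB family as CBF5, at -0.79 ± 0.29 (SD, n = 3 each). Their adjusted p values were 0.072 and 0.0862, with unadjusted p below 0.05 for both (limma). DEG1, the third tested, had log2 ratios of 0.67, -0.63 and -0.79. In the fit of genes on at least 2 arrays, 8 synthases were tested, 0 passed and 6 had means below 0, with a median of -0.40. PUS5 and PUS6 had means of 0.90 and 0.61 in that fit.

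Genes whose introns encode snoRNAs contained the largest share of calls among the 7 lists. Of 8 hosts, 6 had spots, all 6 were tested and 5 were lower, with a median of -1.25. TEF4 (YKL081W), a subunit of elongation factor 1B, had log2 ratios of -2.57, -2.34 and -2.05 (mean -2.32 ± 0.26, SD, n = 3). RPL7B (YPL198W), a large-subunit ribosomal protein, had -1.35, -2.39 and -1.30 (mean -1.68 ± 0.61, SD, n = 3; adjusted p = 0.0193, limma). RPL7A (YGL076C), its near-identical copy, had -0.62, -2.21 and -1.02, and its mean of -1.28 ± 0.83 (SD, n = 3; adjusted p = 0.0482, limma) was -0.82 without array 2 (adjusted p = 0.0904, limma). Hybridisation may not separate these copies. The spots report the polyadenylated host transcript and say nothing of the snoRNA cut from its intron. The remaining calls were NOG2 at -1.21 ± 0.43 and RPS22B at -1.12 ± 0.19, and EFB1 stood at -0.38 ± 0.32 (SD, n = 3 each; adjusted p = 0.357 for EFB1, limma).

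For the tri-snRNP, the other particle that holds SNU13, few genes could be tested. Of 12 tri-snRNP protein genes 3 were tested, 0 passed in limma, all 3 had means above 0 and the median was 0.53. PRP38 stood at 0.65 ± 0.46 and SNU23 at 0.53 ± 0.87 (SD, n = 3 each; adjusted p = 0.154 and 0.338, limma). In the fit of genes on at least 2 arrays, 9 of these genes were tested, 0 passed, 2 (SNU114 and DIB1) had means below 0 and the median was 0.35. Of 5 factors that bind the PAC or RRPE promoter elements of ribosome biogenesis genes, or drive their growth control, 2 were tested and 0 passed in limma. The kinase gene SCH9 stood at -0.63 ± 0.70 and the repressor gene DOT6 at 0.12 ± 0.24 (SD, n = 3 each), DOT6 being -0.01 without array 3. In the fit of genes on at least 2 arrays, all 5 factors were tested, 0 passed and 3 had means below 0, with a median of -0.29. TOD6 was at -1.145 on both arrays 2 and 3 (adjusted p = 0.0774, limma), and SFP1 had a mean of 0.69 (adjusted p = 0.271, limma). The unadjusted p of each gene of these lists that was tested on all 3 arrays was above 0.05.

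**Figure D4:**
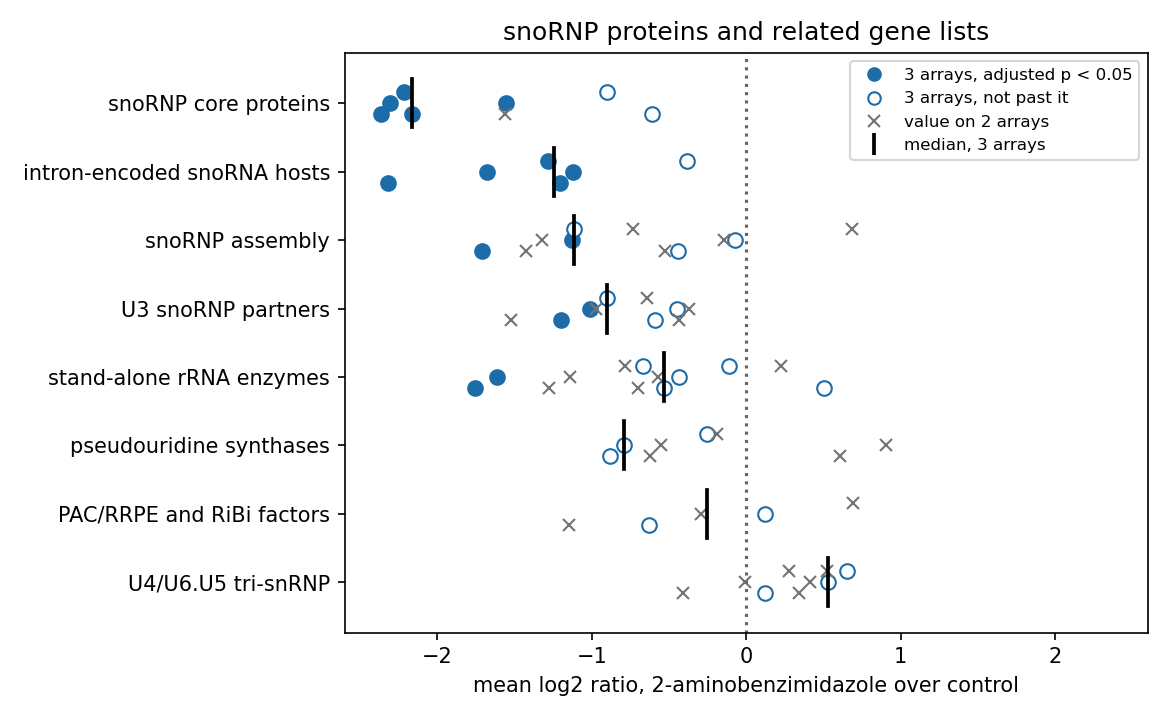
Mean log2 ratio of treated over control for each gene of the snoRNP core proteins and the 7 related lists. Filled circles passed limma at an adjusted p below 0.05 on 3 arrays, open circles did not, crosses are genes with values on 2 arrays, and black ticks are medians of the genes on 3 arrays. The medians run from -2.17 for the core proteins to 0.53 for the tri-snRNP list.

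The genes whose 3 values were nearest to the members' median profile of -2.12, -1.63 and -1.87 were sought by the root mean square difference over the 3 arrays. They were PAL1 (YDR348C), a protein of polarised growth sites, at a distance of 0.13, TRM82 (YDR165W), a subunit of the tRNA m7G methyltransferase, at 0.20, RRP12 (YPL012W), which acts in ribosomal subunit export, at 0.20, RMT2 (YDR465C), an arginine methyltransferase, at 0.26, and MEU1 (YLR017W), methylthioadenosine phosphorylase, at 0.28. Nearest to GAR1 were TEF4 at 0.18, RPG1 (YBR079C) at 0.19, HAS1 (YMR290C) at 0.21, RPA49 (YNL248C) at 0.22 and AAH1 (YNL141W) at 0.34. Likeness over 3 arrays is a description of these values only.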

How the data were processed

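The authors deposited, for 3 arrays, 1 log ratio per spot for 6272 spots, read here as log2 of treated over control. Per the labels, the authors normalised the log ratios by LOWESS, using spots of flag value 0. Not given in the sources used here are the background correction and the image software. No intensities were used, so spots near background or saturated could not be told, and the number of arrays limits precision. Spots were named through the platform annotation and RefSeq's genes of assembly R64: 5308 had 1 symbol, 0 several and 964 none. A gene with several spots took their mean on each array. Both CBF5 and NOP56 had 2 spots with identical values.

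A limma fit (version 3.58.1, R 4.3.3) tested the ratio of each gene against 0 (intercept, eBayes, two-sided, Benjamini-Hochberg over 3039 genes, threshold 0.05), with 2 residual and 5.31 prior degrees of freedom. Members and lists were chosen with earlier results of these data known. Genes named from a list were the passing ones, up to the 3 lowest and 3 highest, or else the 2 furthest from 0. Others were added after their values were seen: RVB1, NAF1, RNT1, PIH1, BCD1, HIT1, RCL1, DEG1, PUS5, PUS6, NOG2, RPS22B, EFB1, SNU114, DIB1, TOD6 and SFP1. Alternatives were centred or scaled arrays, other variance estimates, array weights, genes on at least 2 arrays, all spots, a threshold of 0.01, a test against a 1.5-fold change, and each array left out. Sequences were not used here.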

Additional observations from a re-analysis of the deposited data

How the results depend on the processing

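The 5 members called lower stayed 5 with centred or scaled arrays, a robust variance, array weights or all spots, were 6 with genes on at least 2 arrays (RRP9 added) and 4 against a 1.5-fold change (CBF5 lost). They were 2 (GAR1 and NOP58) at the 0.01 threshold, 0 with an unmoderated variance and 0 to 5 with one array left out. The unmoderated fit passed 0 of 3039 genes, and 5 members had an unadjusted p below 0.05 in it. Over all 3039 genes, 251 were lower with centred arrays, 281 with scaled ones, 292 with a robust variance and 429 with array weights. Against a 1.5-fold change 16 of 3039 genes were lower, and with genes on at least 2 arrays 294 of 5043 were. The counts over all genes at the 0.01 threshold and with all spots are not given here. Listed genes called lower numbered 11, but 1 at the 0.01 threshold, 1 against a 1.5-fold change, 0 with an unmoderated variance and 0 to 11 with one array left out. The call of RPL7A was lost when arrays were centred or scaled, with genes on at least 2 arrays, and without array 2, and PUS4 gained one with array weights. The members' median of -2.17 was -1.86 with genes on at least 2 arrays, where RRP9 joins, and -2.15 to -2.12 with scaled or centred arrays. It was -1.93 without array 1 and also without array 2, and -2.13 without array 3. The H/ACA minus box C/D difference ran from 0.21 to 0.65 over its alternatives. DOT6 ran from -0.014 without array 3 to 0.222 without array 2. The fits without array 1 or array 3 passed 0 genes, and the cause was not tested. Each array paired a treated culture with an untreated one in its other channel, so the test of the ratio against 0 was already paired.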

Other observations

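The nearest protein-coding neighbours of the members on the chromosomes, taken from the order of genes in the RefSeq table, were looked at as well. Of 18 neighbours, 10 were tested, and their median log2 ratio of treated over control was -0.06. Of these 10, 2 were lower and 1 was higher, beside 9.64% lower and 8.36% higher over all 3039 genes. PWP1 (YLR196W), a ribosome assembly gene beside NOP56, was lower with log2 ratios of -1.32, -1.75 and -1.85 on arrays 1, 2 and 3 (mean -1.64; adjusted p = 0.0154, limma). ERG7 (YHR072W), lanosterol synthase, beside the unmeasured NOP10, was lower with -1.62, -1.83 and -0.95 (mean -1.47; adjusted p = 0.0213, limma). IDP2 (YLR174W), cytosolic isocitrate dehydrogenase, beside CBF5, was higher with 0.61, 1.23 and 1.22 (mean 1.02; adjusted p = 0.0451, limma). The 2 tested neighbours of SNU13, VMA3 and YEL025C, stood at 0.01 and 0.53. GAR1, with a mean of -2.36, lies between RPF1 and YNG2, which had no value on array 1 and means of -0.19 and 0.61 over arrays 2 and 3.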
